A study of Mus musculus with 88 samples.

Results

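The genes described here encode the subunits of respiratory complexes III and IV and of ATP synthase, together with cytochrome c, in mouse tibialis anterior muscle. Members were taken by symbol. They are the protein-coding genes whose symbols start with Uqcr, with Atp5 or with Cox followed by 4, 5, 6, 7 or 8, and Cyc1, Cycs, mt-Cytb, mt-Co1, mt-Co2, mt-Co3, mt-Atp6 and mt-Atp8. Among 56065 gene identifiers, 52 matched, and 48 reached the required mean of 1 CPM (counts scaled to library size) over the 88 libraries. The lowest gene kept was Cox4i2, at 2.65 CPM, and the highest left out was Cox6b2, at 0.264 CPM. Cox7b2, Cox8c and a second identifier named Atp5o lay lower still. The members are 42 nuclear genes, of which 9 belong to complex III, 15 to complex IV and 17 to ATP synthase, with Cycs as the remaining one, and 6 mitochondrial genes. The symbol rule also takes in Cox7a2l and Atp5s, which are not regarded as core subunits.

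Complex III passes electrons from ubiquinol to cytochrome c, complex IV passes them on to oxygen, and both pump protons across the inner mitochondrial membrane. ATP synthase lets the protons flow back and uses that flow to make ATP. Each complex joins a few subunits made inside the mitochondrion to many that are encoded in the nucleus and imported, and skeletal muscle uses its own isoforms of several complex IV subunits (Cox6a2, Cox7a1 and Cox8b) beside the ubiquitous ones (Cox6a1, Cox7a2 and Cox8a).

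Poly(A)-enriched mRNA was sequenced from the tibialis anterior, a shin muscle made mainly of fast fibres, in both sexes of 2 mouse models of colorectal cancer. In the C26 experiment, Balb/c mice were injected on both sides with C26 cells, a colon carcinoma line, and muscle was taken after 10, 20 or 25 days. Controls received PBS and were sampled at 25 days, so the earlier days have no control of their own day, and the labels give no age for these mice. The PBS groups held 7 female and 8 male libraries. There were 8 of each sex at 10 days, 8 female and 7 male at 20 days, and 6 female and 8 male at 25 days. The APC experiment compared 20-week-old APC+/Min mice, which carry a mutant Apc allele in every cell and form intestinal tumours, with wild types on a C57 black background. It had 8 wild type and 6 APC+/Min libraries of each sex. The labels do not say library by library that each is 1 mouse, so p-values measure the spread between libraries.

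Totals ran from 18.2 to 30.7 M counts per library. Several libraries stood apart, and the labels do not say why. In C26 female 25 days replicate 6, short transcripts were in excess: its length slope, the slope of a gene's deviation from its mean log2 level on log2 transcript length, was -0.63, against a median of -0.01 in its group. APC male wild type replicates 1 and 2 had mitochondrial shares of 31.9% and 33.3% of all counts, against 15.2% to 23.9% in the other 6. They also had length slopes of -0.08 and -0.11 against 0.11 to 0.19. C26 male 25 days replicate 2 held 191 CPM of the female transcript Xist, and C26 male 20 days replicate 3 and male 25 days replicates 4 and 5 were rich in liver Alb. Markers of skeletal muscle (Acta1, Ckm, Tnnt3, Mylpf and Mb) were abundant in each group, with none of the 5 at 0.

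Promoters are shown for the gene that fell most (Cox7a1), its ubiquitous counterpart (Cox7a2), and 3 genes with a match to a factor known to control respiratory genes. Each line holds the 250 bases before the start of the gene from RefSeq's table for GRCm38.p6. Capitals mark a match to the motif of NRF1 (in Atp5k and, with 2 copies, in Cox6a1), of the oestrogen-related receptors (in Atp5g3) or of ETS factors (the last match in Cox6a1).
Cox7a1, chr7:30183921-30184170, plus strand: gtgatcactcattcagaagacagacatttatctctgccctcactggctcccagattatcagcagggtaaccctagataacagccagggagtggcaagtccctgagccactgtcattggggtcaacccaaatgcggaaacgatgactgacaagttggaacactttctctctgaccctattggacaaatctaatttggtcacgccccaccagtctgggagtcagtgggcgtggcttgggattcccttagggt
Cox7a2, chr9:79759854-79760103, minus strand: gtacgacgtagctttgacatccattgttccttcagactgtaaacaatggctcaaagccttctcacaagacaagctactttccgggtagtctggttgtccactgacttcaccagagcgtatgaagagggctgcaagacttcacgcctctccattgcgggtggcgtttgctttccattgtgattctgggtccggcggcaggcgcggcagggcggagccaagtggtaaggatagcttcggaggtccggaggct
Atp5k, chr5:108434400-108434649, minus strand: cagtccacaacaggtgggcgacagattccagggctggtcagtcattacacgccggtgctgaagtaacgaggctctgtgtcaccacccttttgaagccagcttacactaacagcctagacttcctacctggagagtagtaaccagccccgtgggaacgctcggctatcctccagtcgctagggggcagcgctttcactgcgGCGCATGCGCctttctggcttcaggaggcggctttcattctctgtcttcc
Atp5g3, chr2:73911327-73911576, minus strand: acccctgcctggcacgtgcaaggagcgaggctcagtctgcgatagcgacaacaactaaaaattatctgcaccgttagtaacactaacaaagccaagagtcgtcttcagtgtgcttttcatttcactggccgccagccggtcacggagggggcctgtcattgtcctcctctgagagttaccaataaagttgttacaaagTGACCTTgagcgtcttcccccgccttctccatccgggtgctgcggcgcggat
Cox6a1, chr5:115348959-115349208, minus strand: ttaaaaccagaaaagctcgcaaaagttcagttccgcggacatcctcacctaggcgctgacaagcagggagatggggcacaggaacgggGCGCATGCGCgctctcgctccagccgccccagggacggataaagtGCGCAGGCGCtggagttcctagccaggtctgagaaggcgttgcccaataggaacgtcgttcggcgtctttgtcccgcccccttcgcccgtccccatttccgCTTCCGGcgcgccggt
Of the 42 nuclear members 30 had an entry in that table. Each 300-base window, 250 before to 50 after the start, was searched on both strands. Matches not wholly within the printed bases were also found in Atp5k (oestrogen-related receptor and ETS motifs) and Atp5g3 (NRF1 motif). The NRF1 motif, which allows any base at its centre, was found in 8 of the 30 (26.7%), against 5.19% of 27025 genes, and 6 of the 8 are ATP synthase genes. The oestrogen-related receptor motif AAGGTCA was found in 4 (13.3% against 5.38%), the ETS motif CCGGAAG in 10 (33.3% against 9.93%) and the YY1 motif AAGATGGC in 2 (6.67% against 3.19%). The printed stretches of Cox7a1 and Cox7a2 hold none of these letters. A match describes the sequence alone.

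Per kilobase of transcript, 5 of the 6 mitochondrial mRNAs lay above every nuclear member in wild type APC females, and mt-Atp8 did not (563 CPM per kb). The median level of mt-Co1, the catalytic core of complex IV, was 36806 CPM per kb in these females. The highest nuclear member was Atp5b, the catalytic beta subunit of ATP synthase, at 1451 CPM per kb. It was also the highest in the other 3 control groups, at 1284 in APC males, 1830 in C26 females and 1931 in C26 males. The lowest were Atp5s, at 8 CPM per kb, and Cox4i2, the isoform of subunit 4 typical of lung, at 3 CPM per kb in the same females. Muscle isoforms stood far above their counterparts, with Cox6a2 at 990.1 against 27.6 for Cox6a1, Cox8b at 574 against 28 for Cox8a, and Cox7a1 at 499 against 197 for Cox7a2, all in CPM per kb. Among the nuclear genes of complex III the core protein gene Uqcrc1 led in these females at 512 CPM per kb, and Uqcrc2, the other core protein, was lowest at 243.

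**Figure D1:**
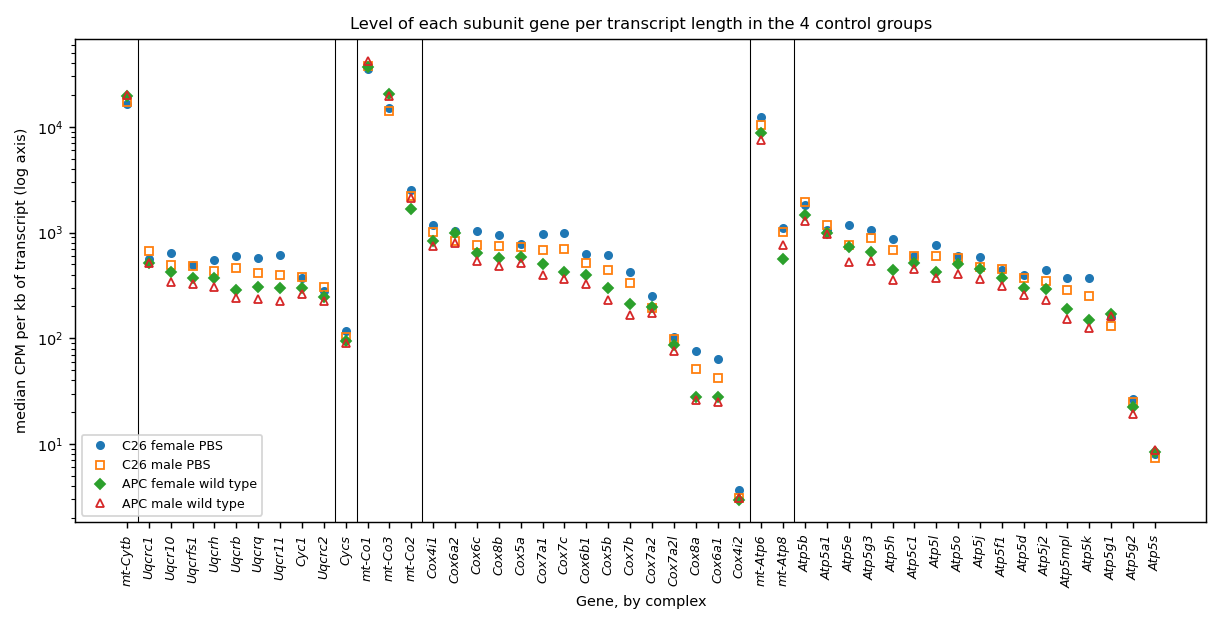
Median level of each gene in CPM per kilobase of transcript (log axis) in the 4 control groups, with genes grouped by complex along the horizontal axis. Atp5b was the highest nuclear gene in each control group, and mt-Co1 stood above it (36806 against 1451 CPM per kb in wild type APC females).

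Genes of all 3 complexes fell in APC+/Min females. With edgeR's quasi-likelihood test (Benjamini-Hochberg over all genes tested, called at an adjusted p below 0.05), 39 of the 48 members were lower and 0 higher, while 38.0% of all genes were called, 17.9% lower and 20.1% higher. The median log2 change was -0.82 over the members and -0.01 over all genes. Complex III fell in 9 of 9 nuclear genes (median -1.09), ATP synthase in 15 of 17 (-0.84) and complex IV in 9 of 15 (-0.68). For 30 of the 48 members every APC+/Min library lay below every wild type library, which held for 4.91% of all genes tested. Within groups, the median SD of log2 level over complex III genes was 0.18 in wild types and 0.39 in APC+/Min. In bulk muscle, fewer fibres or mitochondria and less RNA per cell cannot be told apart.

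**Figure D2:**
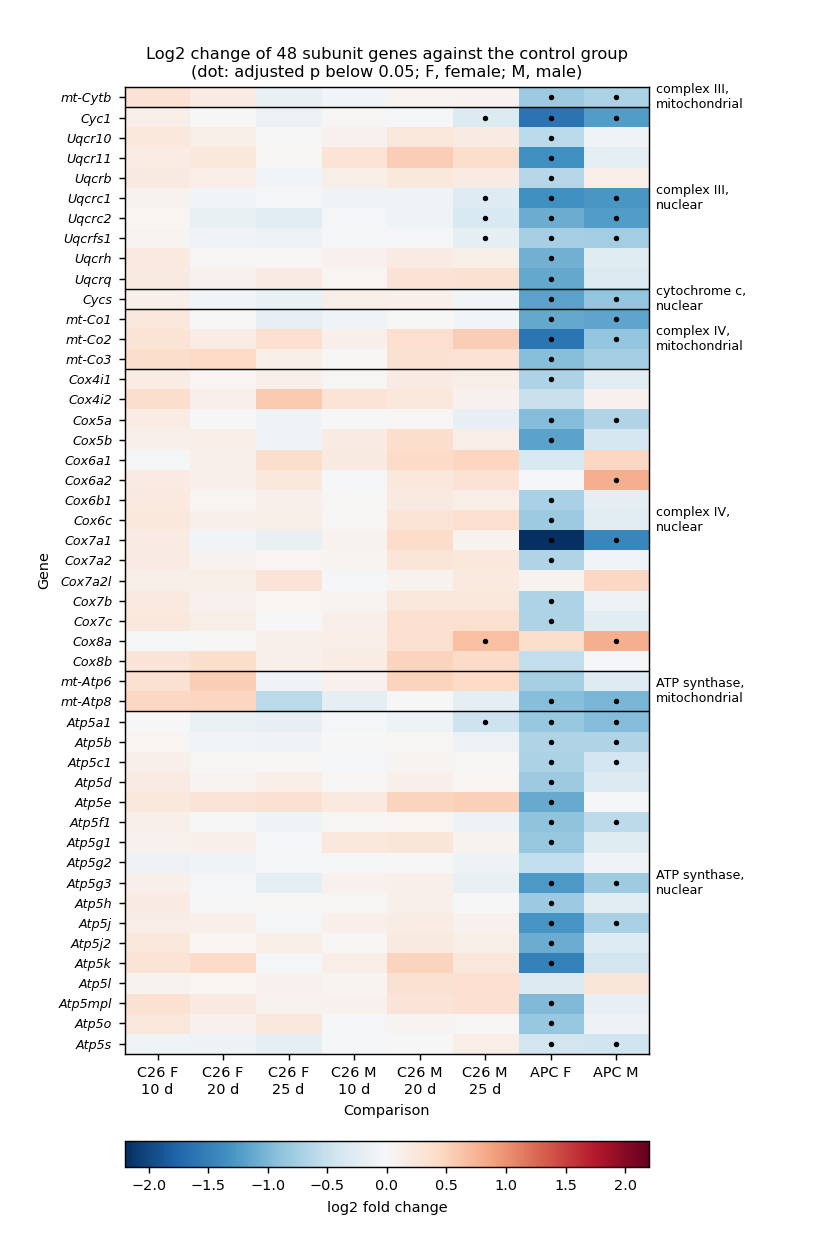
Log2 change of the 48 genes (rows, by complex) in the 8 comparisons with the control group (columns); colour gives the log2 fold change and a dot an adjusted p below 0.05. Dots fill most of the APC+/Min female column (39 of 48), fewer of the APC+/Min male column (20), and 6 cells of the C26 male 25 days column.

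Cyc1 (ENSMUSG00000022551), which encodes the haem-bearing cytochrome of complex III, lay at 331 CPM (lowest), 454 (median) and 492 (highest) in wild type females and at 85.0, 131 and 264 in APC+/Min females. It fell 3.06-fold (log2 change -1.62 ± 0.20, SE, adjusted p = 1.4e-06 by edgeR). Uqcrc1 (ENSMUSG00000025651), a core protein on the matrix side, lay at 664, 846 and 937 CPM against 210.05, 297 and 541, and fell by 1.36 ± 0.18 (adjusted p = 3.2e-06). For both genes the groups did not overlap. Uqcrc2, its partner, fell by 1.09 ± 0.18 (388, 461 and 541 CPM against 174, 199 and 322). Uqcrq, a small subunit next to cytochrome b, fell by 1.13 ± 0.22. The other nuclear members, Uqcrfs1 (the Rieske iron-sulfur protein), Uqcrb, Uqcrh, Uqcr10 and Uqcr11, fell by 0.60 to 1.34. Cycs, the soluble carrier between complexes III and IV, lay at 269.97, 292 and 364 CPM in wild types and at 96.1, 123 and 202 in APC+/Min, without overlap, and fell by 1.18 ± 0.16 (adjusted p = 4.1e-06).

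In complex IV the muscle isoform Cox7a1 (ENSMUSG00000074218) fell most of the 48 in these females. It lay at 155, 196 and 225 CPM in wild types and at 14.7, 32.5 and 105 in APC+/Min, a 4.55-fold fall (log2 change -2.19 ± 0.46, adjusted p = 0.00057 by edgeR). The groups did not overlap, and the APC+/Min libraries were spread far more widely than the wild types. Cox5a, a matrix-facing subunit, fell by 0.95 ± 0.15 (295, 382 and 414 CPM against 158, 191 and 245), and its neighbour Cox5b by 1.19 ± 0.23. Cox4i1, the common form of subunit 4, fell by 0.68 ± 0.17, and Cox7a2 by 0.67 ± 0.16 (117, 130 and 163 CPM against 63.4, 77.4 and 108). Cox6b1, Cox6c, Cox7b and Cox7c also fell. The 6 nuclear members of complex IV that were not called were Cox6a2, Cox6a1, Cox8a, Cox8b, Cox4i2 and Cox7a2l, the last a factor that joins complexes III and IV. Cox6a2 lay at 478, 673 and 831 CPM in wild types and at 478, 635 and 832 in APC+/Min, so that the groups covered the same range (log2 change -0.02 ± 0.19).

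ATP synthase fell in its head, stalk and membrane parts. Atp5g3, one of 3 genes for the c-ring subunit, lay at 308, 471 and 569 CPM in wild type females and at 148, 177 and 266 in APC+/Min, without overlap. It fell by 1.27 ± 0.17 on the log2 scale (adjusted p = 3.6e-06 by edgeR). Atp5g1, a second c-ring gene, fell by 0.83 ± 0.16 (340.1, 453 and 549.9 CPM against 212, 243 and 328), and Atp5g2, the third, did not pass at -0.54 ± 0.30. Atp5j and Atp5f1, both of the peripheral stalk, fell by 1.30 ± 0.21 and 0.89 ± 0.15. In the head, Atp5a1 and Atp5b fell by 0.84 ± 0.19 and 0.67 ± 0.16. Atp5k, a small membrane subunit, lay at 37.6, 54.9 and 70.2 CPM against 10.9, 18.2 and 28.7 and fell by 1.49 ± 0.31 (adjusted p = 0.00052). Atp5l, another membrane subunit, did not pass (-0.30 ± 0.20).

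Of the 6 mitochondrially encoded members 5 fell in APC+/Min females. mt-Co1 lay at 48161, 56865 and 79300 CPM in wild types and at 17709, 25517 and 37798 in APC+/Min, with no overlap (log2 change -1.12 ± 0.26, adjusted p = 0.0011 by edgeR). mt-Co2, which receives electrons from cytochrome c, fell by 1.61 ± 0.33, from 752, 1139 and 2131 CPM to 260.25, 439 and 483. mt-Co3, the third core subunit, fell by 0.93 ± 0.35 and mt-Cytb, the catalytic cytochrome of complex III, by 0.80 ± 0.26, with overlap in both. mt-Atp8 fell by 0.94 ± 0.23. mt-Atp6, the proton channel subunit, lay at 3581, 5941 and 8415 CPM against 1505, 2519 and 9232 and was not called (-0.72 ± 0.56). The genes mt-Atp8 and mt-Atp6 overlap on 1 transcript, so the split of reads between them is uncertain. Mitochondrial transcripts made up a median of 17.1% of counts in wild types and 10.3% in APC+/Min.

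APC+/Min males had fewer calls. Of the 48 members 18 were lower and 2 higher, while 33.1% of all genes were called, 16.5% lower and 16.6% higher. All 18 were also among the 39 lower in females (46.2% of the female set). With 39 of the 48 members lower in females, a large overlap is built in, and the overlap over all genes is not given. The median change was -0.28 over the members and -0.81 over the mitochondrial ones, against 0.01 over all genes. By complex, 4 of 9 nuclear genes of complex III, 7 of 17 of ATP synthase and 2 of 15 of complex IV were lower. In 4 of the 48 members (Uqcrc1, Cyc1, Cycs and Atp5s) every APC+/Min library lay below every wild type library, against 3.77% of all genes tested. Without wild type replicates 1 and 2 the counts were 13 lower and 3 higher (38.2% of all genes called): Cox6a1 was then also higher (0.81), and Cox7a1 (-1.08), mt-Cytb (-0.29), mt-Co2 (-0.52), Atp5j and Atp5s were not called. With the length slope added as well, 23 were lower and 0 higher (10.5% of all genes called). The slopes of the remaining wild type males did not overlap those of APC+/Min males. That fit therefore compares the genotypes at slopes they do not share, and relies on a slope coefficient common to all APC groups.

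The calls in complex III of males fell on the larger subunits, which also have the longer transcripts. The called nuclear genes have transcripts of 1363 to 1896 bases, and the others of 434 to 963. Over the nuclear members the male change ran with transcript length (Spearman's rho -0.52). With the length slope as a covariate rho was -0.13, and 38 members were lower. Whether the split follows subunit size or transcript length was not tested. Uqcrc1 lay at 730.1, 855 and 1109 CPM in wild type males and at 262, 332 and 548 in APC+/Min males, without overlap (log2 change -1.29 ± 0.18, adjusted p = 7.7e-06 by edgeR). Cyc1 fell by 1.23 ± 0.20 (344, 403 and 472 CPM against 125, 153 and 277), again without overlap. Uqcrc2 fell by 1.24 ± 0.19 and Uqcrfs1 by 0.77 ± 0.15. The small subunits did not pass without the covariate: Uqcrq was at -0.32 ± 0.22, Uqcrh at -0.26 ± 0.22, Uqcr11 at -0.21 ± 0.29, Uqcr10 at -0.08 ± 0.20 and Uqcrb at 0.14 ± 0.18. Cycs fell by 0.86 ± 0.16 (248, 279 and 332 CPM against 107, 152 and 223).

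In complex IV of males, Cox5a fell by 0.66 ± 0.15, and Cox7a1 fell by 1.43 ± 0.44 (123, 155 and 287 CPM against 9.37, 47.5 and 167, adjusted p = 0.014 by edgeR). Its APC+/Min libraries ran from far below the wild types to within their range. Cox6a2 was higher in APC+/Min males, at 617, 998 and 1303 CPM against 419, 544 and 853, with overlap (log2 change 0.81 ± 0.19, adjusted p = 0.002). Cox8a, the ubiquitous form of subunit 8, was also higher, at 15.9, 24.4 and 45.4 CPM against 11.8, 14.4 and 24.0 (0.79 ± 0.23, adjusted p = 0.0099). Cox6a1, Cox8b and Cox7a2 did not pass, at 0.46 ± 0.23, -0.05 ± 0.23 and -0.07 ± 0.16. Of the core genes, mt-Co1 fell by 1.16 ± 0.26 (50079, 64309 and 115292 CPM against 18549, 32969 and 51719, overlapping slightly) and mt-Co2 by 0.86 ± 0.32. mt-Co3 did not pass at -0.76 ± 0.35 (adjusted p = 0.091).

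ATP synthase in males fell in Atp5a1, the alpha subunit of the head, which lay at 1291, 2373 and 2656 CPM in wild types and at 799.5, 1177 and 1558 in APC+/Min. Its log2 change was -0.95 ± 0.19 (adjusted p = 3.0e-04 by edgeR), and the groups overlapped. Atp5g3, Atp5b and Atp5f1 fell by 0.78 ± 0.17, 0.66 ± 0.16 and 0.57 ± 0.15. Atp5j, Atp5c1 (the gamma subunit) and Atp5s were also lower. Atp5g1 was at -0.27 ± 0.16 and Atp5g2 at -0.09 ± 0.29, neither called. mt-Atp8 and mt-Cytb fell by 1.00 ± 0.23 and 0.69 ± 0.26. mt-Atp6 was at -0.28 ± 0.55, and its wild type libraries ran from 3078 to 32493 CPM.

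**Figure D3:**
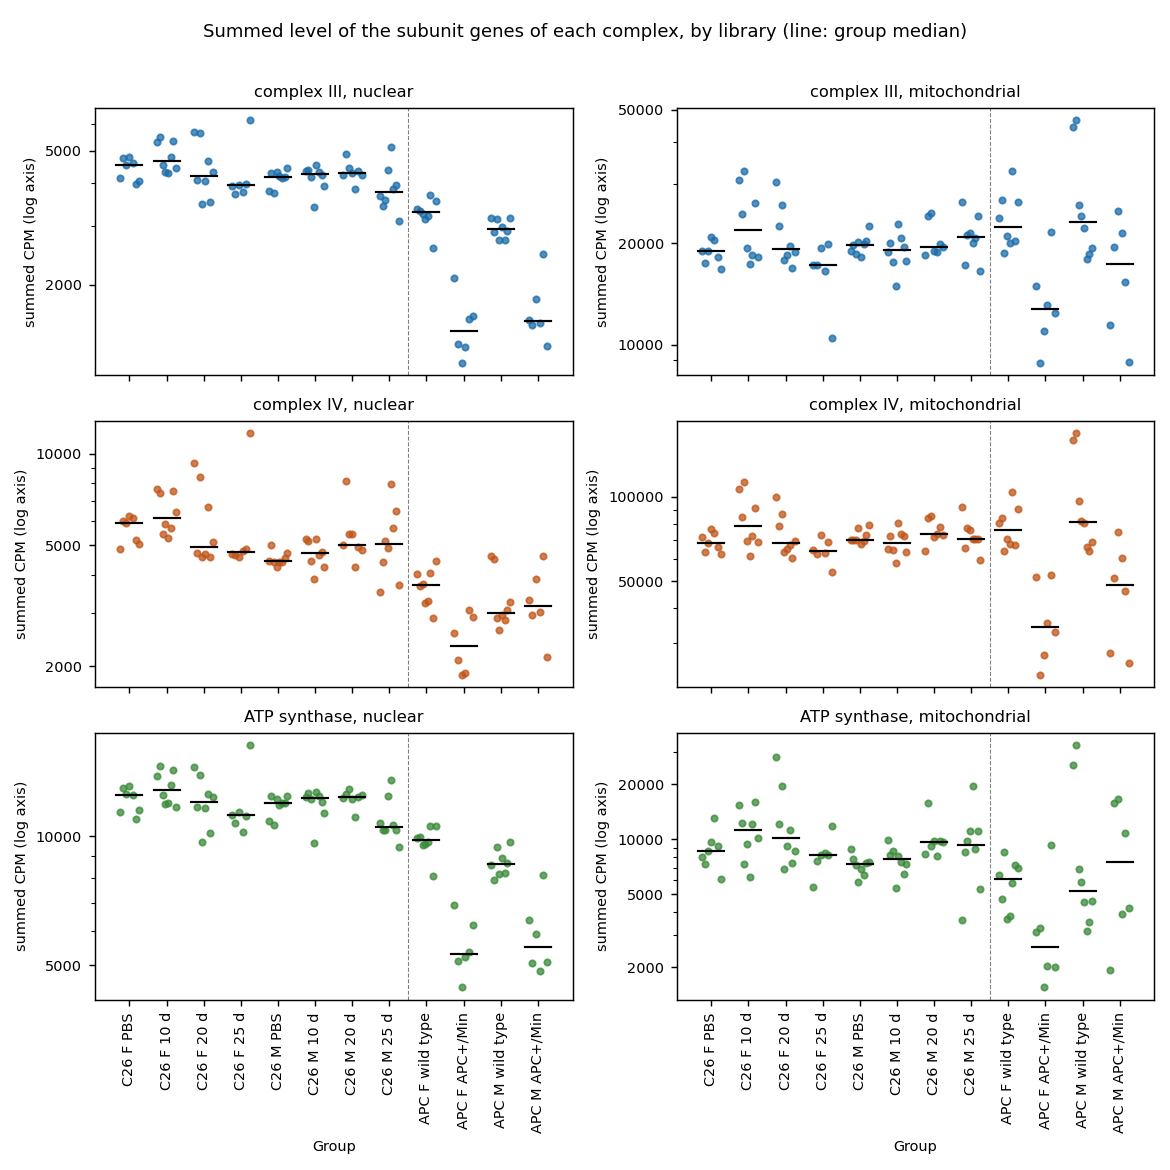
Summed TMM-normalized CPM (log axis) of the genes of each complex, nuclear and mitochondrial apart, in each library of the 12 groups; lines are group medians. Nuclear complex III genes lay at 1176 to 2095 CPM in APC+/Min females against 2571 to 3685 in wild types, and at 1319 to 2478 against 2723 to 3166 in males, while nuclear complex IV genes overlapped in males.

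Summed levels were compared by complex, with no test between complexes. The 9 nuclear complex III genes summed to a median of 1561 CPM (1319 to 2478) in APC+/Min males against 2926 (2723 to 3166) in wild types, and the groups did not overlap. The 15 nuclear complex IV genes summed to 3154 (2149 to 4600) against 3002 (2626 to 4598) and covered nearly the same range. Cox6a2 makes up much of the complex IV sum (medians of 998 CPM in APC+/Min and 544 in wild types), and it was not called higher with the length slope as a covariate. In females both sums lay lower in APC+/Min, with complex III at 1461 (1176 to 2095) against 3280 (2571 to 3685) and complex IV at 2341 (1871 to 3063) against 3705 (2888 to 4428). The complex III sums of females did not overlap, and the complex IV sums overlapped. The 17 nuclear ATP synthase genes summed to 5303 (4440 to 6901) against 9784 (8090 to 10576) in females and to 5511 (4841 to 8094) against 8610 (7892 to 9672) in males.

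The male change minus the female change was tested as an interaction. By edgeR 0 of 48 members were called (19 at an unadjusted p under 0.05, 0 by DESeq2), and 0.135% of all genes were. The members' median difference was 0.50, with 42 of 48 above 0. The smallest adjusted p was 0.15, for Uqcrb (0.77 ± 0.26) and for Cox6a2 (0.82 ± 0.28). Without APC male wild type replicates 1 and 2, a choice made after seeing the data, 15 members were called, each with the male value higher, and 8.26% of all genes were. They included Uqcrb (0.99), Cox6a2 (1.05), Atp5e (1.40) and Uqcr11 (1.49). With the length slope added to that fit, 0 members were called, 0.0547% of all genes were, and the same 4 genes stood at 0.31, -0.07, -0.23 and -0.03. Whether members were called thus depended on these 2 libraries and on the fit, and no member was called when any 1 library was left out alone. Without these 2 libraries, length slopes of males ran from 0.11 to 0.19 in wild types and from -0.13 to 0.08 in APC+/Min. These ranges did not overlap, so in males the fit with the slope compares the genotypes at slopes they do not share. It relies on a slope coefficient, common to all APC groups, that holds across this gap, which was not tested.

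Length slopes moved with genotype, in opposite directions in the sexes. In females they ran from -0.12 to 0.15 in wild types (median 0.03) and from 0.04 to 0.26 in APC+/Min (0.15), where a higher slope means more counts from long transcripts. In males they ran from -0.11 to 0.19 in wild types (median 0.11) and from -0.13 to 0.08 in APC+/Min (-0.08). The male ranges overlapped only through wild type replicates 1 and 2 (-0.08 and -0.11), so the male counts with the covariate lean on these libraries. The fit without them is given above. With the slope as a covariate, 36 members were lower and 2 higher in females (41.7% of all genes called) and 38 lower and 0 higher in males (19.2%). The nuclear medians then came to -0.63 and -0.64. Cox6a2 was not called in males with the covariate (0.34, adjusted p = 0.067), nor was Cox8a (0.40), whereas in females both were called higher (0.33 and 0.62). Whether these 2 genes were called thus depended on the setting.

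Among the 42 nuclear members, the male change ran with transcript length (Spearman's rho -0.52 across genes, which share the same libraries) and fell to -0.13 with the covariate. Members under 700 bases had a median change of -0.14 and longer ones -0.43. In APC+/Min females rho was -0.10 without and -0.31 with the covariate. In C26 males at 25 days it was -0.67 and -0.23.

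**Figure D4:**
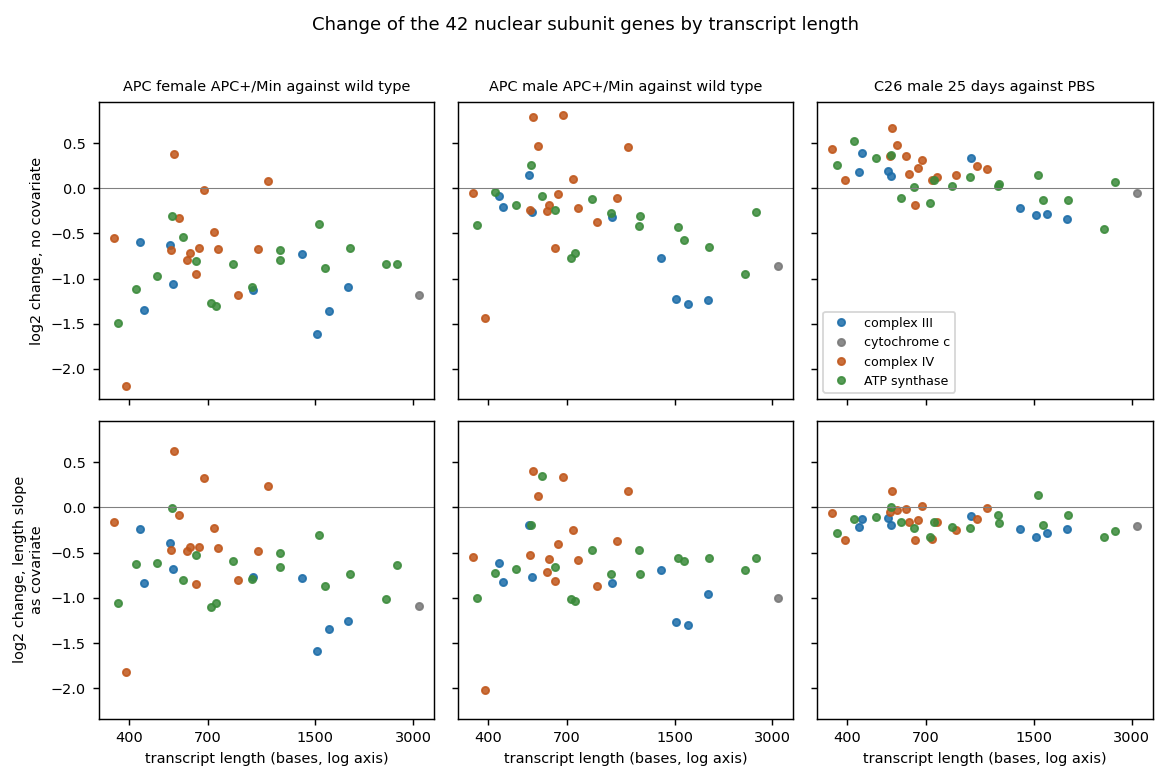
Log2 change of the 42 nuclear genes (vertical axis) against transcript length in bases (log axis), without a covariate (upper row) and with the length slope of each library as a covariate (lower row). In APC+/Min males short genes lay near 0 without the covariate (median -0.14 under 700 bases), and with it short and long genes had medians of -0.59 and -0.69.

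Calls that held in each alternative fit were counted. In APC+/Min females 35 of the 39 lower members were called lower in all 8 alternatives and in each fit without 1 library. The other 4 were Atp5s, mt-Cytb, mt-Co3 and Uqcr10. In males 12 of 18 held in the same way: Uqcrc1, Uqcrc2, Cyc1, Uqcrfs1, Cycs, Cox5a, mt-Co1, mt-Atp8, Atp5a1, Atp5b, Atp5f1 and Atp5g3. Across these fits Uqcrc1 ranged from -1.44 to -1.24 and Cyc1 from -1.38 to -1.18 in males. Neither of the 2 higher calls in males held.

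Isoform genes of 1 subunit were compared as the log2 ratio within each library, which cancels scaling but not effects of transcript length. The ratios were not refitted with the length slope, nor tested without APC male wild type replicates 1 and 2. There were 7 pairs and 8 comparisons, 56 exact two-sided permutation tests in all, adjusted together. Cox7a1/Cox7a2, muscle over ubiquitous (transcripts of 393 and 659 bases), fell in both sexes. In females it was 0.54 ± 0.11 (SD, n = 8) in wild types and -1.25 ± 0.92 (SD, n = 6) in APC+/Min (exact permutation p = 0.00067, adjusted p = 0.019). In males it was 0.50 ± 0.28 (SD, n = 8) against -1.32 ± 1.25 (SD, n = 6), with the same exact permutation p and adjusted p = 0.019. The groups overlapped narrowly: female APC+/Min libraries ran from -2.26 to 0.42 and wild types from 0.40 to 0.78, and male ones from -3.54 to 0.11 and from 0.08 to 0.84.

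Cox8b/Cox8a, also muscle over ubiquitous, fell by 0.77 in APC+/Min males (exact permutation test, adjusted p = 0.034). In females it differed by -0.86 and did not pass (exact permutation test, adjusted p = 0.12). Cox6a2/Cox6a1, the third such pair, was not called in either sex (differences of 0.39 in females and 0.30 in males). Among the c-ring genes, Atp5g1/Atp5g3 rose by 0.44 in females and 0.52 in males (exact permutation tests, adjusted p = 0.026 in both), and Atp5g3/Atp5g2 fell by 0.73 in females (adjusted p = 0.025, exact permutation test). The transcript of Atp5g1 has 2675.5 bases and that of Atp5g3 718.5, and the part of length in these ratios was not tested. Atp5g1/Atp5g2 and Cox4i2/Cox4i1 were not called. In the C26 experiment 0 of 42 ratios were called, and the smallest adjusted p before 25 days was 0.068.

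**Figure D5:**
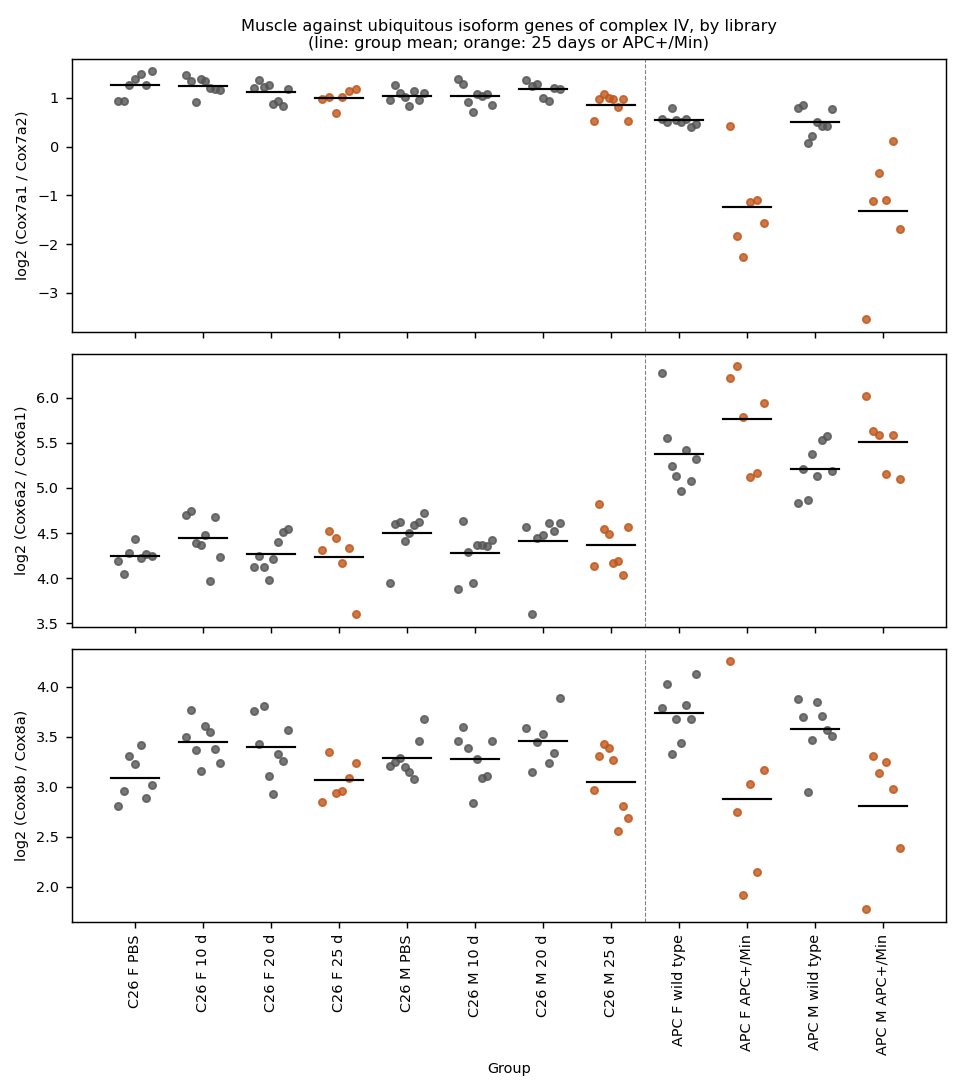
Log2 ratio of muscle to ubiquitous isoform genes of complex IV in each library of the 12 groups; lines are group means and orange marks 25 days or APC+/Min. Cox7a1/Cox7a2 averaged -1.25 in APC+/Min females and -1.32 in APC+/Min males against 0.54 and 0.50 in wild types.

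In the C26 experiment the members were called at 1 time and in 1 sex. All comparisons with PBS within a sex share their controls. Males at 25 days had 5 members lower and 1 higher, while 22.3% of all genes were called, 10.7% lower and 11.6% higher, so the members' share of 6 in 48 lay below the background. The members' median change was 0.13. Of the 5 lower genes 4 belong to complex III, but 5 of 48 is close to the 10.7% of all genes lower. The 5 have transcripts of 1363 to 2471 bases, and the higher gene, Cox8a, has one of 550. Over the 42 nuclear members the change ran with transcript length (Spearman's rho -0.67).

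Atp5a1 lay at 2514, 2940.04 and 3130.01 CPM after PBS and at 1435, 2028 and 2792 at 25 days in males (log2 change -0.45 ± 0.10, adjusted p = 0.00079 by edgeR). Uqcrc2 lay at 518, 574 and 614 against 311, 431 and 591 (-0.34 ± 0.09, adjusted p = 0.0057). Uqcrc1 fell by 0.28 ± 0.08 (892 to 1198 CPM against 692 to 1074). Cyc1 fell by 0.30 ± 0.09 and Uqcrfs1 by 0.22 ± 0.07, and for all 5 genes the groups overlapped. Cox8a was higher, at 22.6, 34.7 and 66.3 CPM against 22.6, 28.4 and 32.3 (0.67 ± 0.21, adjusted p = 0.016).

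Atp5a1 and Uqcrc2 were the genes among these 6 called in all 9 alternatives and in each fit without 1 library. With the length slope as a covariate 14 members were lower and 0 higher (21.6% of all genes called), and Cox8a was not called (0.18). The slopes ran from 0.05 to 0.14 after PBS and from -0.33 to 0.12 at 25 days. Without C26 female 25 days replicate 6, which shares the estimate of spread, 5 were lower and 5 higher (26.7% of all genes called). Without male replicate 2, which held Xist, 5 were lower and 1 higher, and without the 3 libraries rich in Alb 7 and 1. With the 2 compared groups alone 3 were called: Atp5a1 and Uqcrc2 lower and Cox8a higher. Shares of all genes are not given for the compared groups alone or for the fits without male replicate 2 or the Alb-rich libraries. Those counts are not read as a result about the members.

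In females at 25 days 0 of 48 members were called by edgeR (1 at an unadjusted p under 0.05, 0 by DESeq2), while 3.66% of all genes were. Atp5a1 was at -0.18, Uqcrc2 at -0.25, Cyc1 at -0.12, Uqcrc1 at -0.05, Uqcrfs1 at -0.13 and Cox8a at 0.11. The sex difference at 25 days was not called for any member (1 at an unadjusted p under 0.05, 0 by DESeq2; 0.0635% of all genes), with Uqcrc1 at -0.24 (adjusted p = 0.61) and Cox8a at 0.56 (0.67). With the length slope 2 members were lower in females, Cox7a1 (-0.48) and Uqcr10 (-0.30), while 5.88% of all genes were called.

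At the earlier days 0 of 48 members were called. At 10 days this held in females (1 at an unadjusted p under 0.05; 0.0% of all genes called) and males (0 at an unadjusted p under 0.05; 0.0% of all genes). At 20 days it held in females (2; 1.66%) and males (3; 0.985%). DESeq2 called 0 in each of these 4. Median changes were 0.19 and 0.08 in females and 0.04 and 0.20 in males at 10 and 20 days. mt-Cytb in females at 10 days had the smallest unadjusted p among them, with a log2 change of 0.32 ± 0.13. Sex differences at 10 and 20 days were not called either (1 and 0 at an unadjusted p under 0.05, 0 by DESeq2; 0.00635% and 0.0% of all genes).

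From 20 to 25 days 0 members were called in females (3 at an unadjusted p under 0.05; 0.0% of all genes) or males (7; 1.39%) by edgeR, and DESeq2 called 0 and 1. In males Atp5a1 came nearest, at -0.34 ± 0.10 (adjusted p = 0.072). Without the 3 libraries rich in Alb 5 members were lower, while 3.59% of all genes were called.

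Control males and females were also compared. After PBS 0 members were called by edgeR (17 at an unadjusted p under 0.05, 0 by DESeq2; 2.7% of all genes), although the median was -0.26 in males against females and 40 of 48 lay below 0. In 5 members (Cox8a, Cox7a1, Cox6c, Uqcrq and Uqcrh) the male libraries lay below the female ones without overlap, as in 1.13% of all genes tested; none of the 5 was called. Cox7a1 lay at 226, 268 and 324 CPM in males and 326, 385 and 452 in females (-0.56 ± 0.21), and Cox8a at 22.6, 28.4 and 32.3 against 38.4, 41.9 and 46.4 (-0.62 ± 0.21, adjusted p = 0.11). With the 2 PBS groups alone 25 members were called lower in males, while 19.7% of all genes were called. Length slopes moved with sex, at 0.05 to 0.14 in PBS males and -0.09 to 0.02 in PBS females, and with the slope as a covariate 0 members were called. Among APC wild types 0 members differed by sex (2 at an unadjusted p under 0.05, 0 by DESeq2; 0.872% of all genes).

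Genes that build or surround the same complexes were read from lists, against 17.9% of all genes lower and 20.1% higher in APC+/Min females and 16.5% lower and 16.6% higher in males. In APC+/Min females complex III assembly genes were lower in 6 of 6 (median -0.96), among them Bcs1l, which inserts the Rieske protein, at -1.65 ± 0.34, Uqcc1 at -0.98 and Ttc19 at -0.93. Complex IV assembly genes were lower in 19 of 30, including Hccs, which attaches haem to cytochrome c, at -1.04 and Higd1a and Coa3 at -1.09 and -1.12. ATP synthase assembly genes were lower in 5 of 6, with Tmem242, Tmem70 and Atpaf1 at -0.97, -0.77 and -0.83. In males the counts were 4 of 6, 11 lower and 4 higher of 30, and 4 of 6. Coa4, Cox16 and Cox19 were higher in males, at 1.38, 0.82 and 0.73, and Hccs, Coa5 and Cox10 lower, at -1.18, -1.42 and -0.93.

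Other respiratory genes also fell in APC+/Min muscle. Complex II was lower in 4 of 4 genes in both sexes, with Sdhb at -1.43 and Sdhc at -1.19 in females and Sdha at -1.41 in males. Nuclear complex I genes were lower in 32 of 36 in females (median -1.01), and in males 11 were lower and 1 higher (median -0.33). Mitochondrial complex I genes were lower in 7 of 7 and 6 of 7. Ckmt2, the mitochondrial creatine kinase of muscle, fell by 2.41 ± 0.35 in females and 2.39 ± 0.35 in males, and Slc25a4, the ADP/ATP carrier, by 1.14 in females.

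Of 16 genes of mitochondrial biogenesis 3 were higher and 6 lower in APC+/Min females, where the count of higher genes is close to the 20.1% of all genes, and 2 were higher and 9 lower in males. Nrf1, Pprc1 and Yy1, which activate respiratory genes, were higher in females at 1.01, 0.83 and 0.83, and Nrf1 and Yy1 in males at 0.43 each. The 2 male calls barely passed (adjusted p = 0.048 and 0.047 by edgeR), and 2 of 16 lies below the 16.6% of all genes higher in males. Esrra, an oestrogen-related receptor, was lower at -1.36 and -1.30, and Perm1, a muscle regulator acting with it, at -1.99 and -2.80. Esrrg was lower in males at -2.38 and Esrrb in females at -1.99. Among the 30 members with a promoter entry, 6 of 8 with the NRF1 motif and 18 of 22 without it were lower in females, and 3 of 8 and 6 of 22 in males.

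The same lists in C26 males at 25 days stand against 10.7% of all genes lower and 11.6% higher. Complex III assembly genes were lower in 2 of 6 (Bcs1l -0.31, Uqcc1 -0.26), complex IV assembly genes lower in 10 and higher in 3 of 30 (Coa7 -0.63, Cox10 -0.54, Cox17 0.58), and ATP synthase assembly genes in 0 of 6. Complex II was lower in 2 of 4 (Sdhd -0.32, Sdha -0.37). Of the 16 biogenesis genes 7 were lower, among them Esrra (-0.57) and Perm1 (-0.995), and 2 were higher, Pprc1 (0.44) and Yy1 (0.22). Of 7 energy carriers 1, Ckmt2, was lower (-0.55).

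Markers of cell types were counted in the same groups. Of all genes, 20.1% were higher and 17.9% lower in APC+/Min females, and 16.6% and 16.5% in males. In C26 males at 25 days these shares were 11.6% and 10.7%. In lists this short, a count of 1 is not far from what these shares give and is not read as a change of that cell type. In APC+/Min females 4 of 5 skeletal muscle markers were lower, with summed levels of 19822 to 80643 CPM against 56750 to 93907 in wild types. In males 2 of 5 were lower (31700 to 80034 against 54240 to 90295 CPM). Erythroid markers were higher in 6 of 6 in both sexes, summing to 1559 to 13299 CPM against 196 to 812 in females and 5794 to 54306 against 595 to 1366 in males. Neutrophil markers were higher in 5 of 5 tested (8.86 to 43.6 CPM against 0.317 to 1.31 in females and 19.3 to 146 against 0.0753 to 2.75 in males), and 1 of the 6 was at 0 in both wild type groups. Fast glycolytic fibre markers were lower in 2 of 4 in females and 1 of 4 in males. Of 6 oxidative fibre markers 1, Myh2, was lower in each sex, and their summed level ran from 34.9 to 263 CPM in APC+/Min females against 398 to 2131 in wild types and from 19.1 to 758 against 117 to 1960 in males. Myh2, the myosin of oxidative fast fibres, had medians of 44.6 CPM against 1085 in females and 39.1 against 814 in males. In wild types the summed level had medians of 1101 CPM in females and 838 in males, so Myh2 made up most of it. No other marker of that list was called lower. In C26 males at 25 days erythroid markers were higher in 6 of 6 (2212 to 16224 CPM against 1633 to 4559) and neutrophil markers in 5 of 5 (10.7 to 115 against 1.45 to 6.76). Of 5 liver markers 3 were higher there (0.608 to 170 CPM against 0.272 to 16.3), and none was abundant enough to be tested in the APC experiment. Fibro-adipogenic markers were lower in 1 of 3 in APC+/Min females (88.4 to 172 CPM against 84.8 to 266) and 2 of 3 in males (61.4 to 153 against 148 to 339), and higher in 1 of 3 in C26 males at 25 days (263 to 697 against 292 to 537). Of 3 adipocyte markers tested, none was called in APC+/Min females (70.9 to 161 CPM against 99.7 to 190.3), 1 was higher in males (113 to 369 against 92.2 to 263), and 1 was higher and 1 lower in C26 males at 25 days (184 to 559.8 against 155 to 221). Endothelial markers were higher in 2 and lower in 2 of 5 in APC+/Min females and C26 males, and 1 each way in APC+/Min males. Macrophage markers were higher in 5 of 8 in C26 males and in 1 of 8 in each sex of APC+/Min. The part of these markers in the members' changes was not tested.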

How the data were processed

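RNA of 88 tibialis anterior samples was sequenced after poly(A) enrichment, per the labels' protocols. The deposited table holds estimated counts per Ensembl gene, of which 9.70% of values are not whole; for software, the submitters' processing notes list Salmon (1.10.2), limma, edgeR and R (4.4.1), with the build GRCm39 (mm39). Their settings and filters are not stated in the labels. Gene names and transcript lengths came from GENCODE M21, which named 51272 of 56065 identifiers (99.0% of counts). The rounded counts went into edgeR (4.0.16, run under R 4.3.3) with TMM scaling and its filterByExpr filter (min.count 10, min.total.count 15), followed by its tests (robust quasi-likelihood test, Benjamini-Hochberg adjustment over all genes tested, calls at an adjusted p below 0.05). The C26 libraries (60 libraries, 15742 genes tested) and the APC libraries (28 libraries, 14795 genes) were fitted apart, since strain differs, and all 48 members passed the filter. The ± beside a log2 change is its SE, taken from the fold change and its F statistic. Levels are TMM-normalized CPM, and 3 levels in a row are the lowest, median and highest library. Replicates with the same number did not vary together on average (mean correlation of deviations -0.02 in both experiments), so numbers were not taken as pairs.

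Length slopes used 11676 genes that are neither respiratory subunits nor ribosomal proteins, with 0.5 CPM added before the log2. Isoform ratios were compared with exact permutation tests. Alternatives were RLE scaling, no filter, the compared groups alone, DESeq2 1.42.0, a replicate block, the length slope as a covariate, and libraries left out. The tests were checked on simulated data. The members and lists were chosen with earlier results of these data known. The text names every mitochondrial member, both genes of each isoform pair, every member called where 12 or fewer were, otherwise the 4 of each complex and direction with the smallest adjusted p, the highest and lowest per length, and the 3 leading genes of the other lists. Further members named beside them, such as Atp5k, were chosen after their values were seen.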

Additional observations from a re-analysis of the deposited data

Results flagged for a closer look

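A library was singled out where its gap to the nearest other library was too large a share of its group's range by Dixon's test at the 95% level. The test was run on 60 groups of summed levels and 84 groups of isoform ratios, and chance alone marks about 1 in 20 groups.

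C26 female 25 days replicate 6 stood high in all 3 nuclear sums, at 6147 CPM for complex III, 11732 CPM for complex IV and 16297 CPM for ATP synthase, and its Atp5g1/Atp5g3 log2 ratio was -0.13. It has the lowest length slope (-0.63), and 35 of the 48 members were apart from their group in it. C26 male 20 days replicate 2 stood high for nuclear complex IV (8149 CPM) and mitochondrial ATP synthase genes (15774 CPM) and low for Cox6a2/Cox6a1 (3.61), and 13 members were apart in it. Over all members and groups, 69 of 576 were apart (12.0%).

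APC female wild type replicate 7 had the lowest sums of its group for nuclear complex III (2571 CPM) and nuclear ATP synthase genes (8090.1 CPM), which still lay above every APC+/Min female. The nuclear ATP synthase sum was also apart in C26 male 10 days replicate 4 (9657 CPM) and C26 male 20 days replicate 5 (11099 CPM). Among log2 ratios, Cox6a2/Cox6a1 was apart in C26 male PBS replicate 1 (3.94) and APC female wild type replicate 1 (6.28), Cox7a1/Cox7a2 in APC female wild type replicate 3 (0.78), and Cox8b/Cox8a in APC male wild type replicate 3 (2.94).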

How the results depend on the processing

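No called value was reversed in the fits run. The count of members called in APC+/Min females (39) stayed between 37 and 40 in the other fits, and between 35 and 40 with 1 library left out. In APC+/Min males (20) it was 38 with the length slope as a covariate and 16 to 23 otherwise, and 17 to 20 with 1 library left out. The male minus female change in APC+/Min had 15 calls without APC male wild type replicates 1 and 2, and 0 to 0 with any single library left out. The count in C26 males at 25 days (6) was 14 with the length slope, 3 with the compared groups alone and 10 without C26 female 25 days replicate 6, and ran from 4 to 10 with 1 library left out. In C26 females at 25 days it was 2 with the length slope. From 20 to 25 days in males (0) it was 5 with the length slope, 1 with DESeq2, 1 without C26 female 25 days replicate 6 and 5 without the 3 libraries rich in Alb. With 1 library left out it ran from 0 to 4, reaching 4 without male 25 days replicate 4, and 2 without male 25 days replicate 1 or male 20 days replicate 2. PBS males against females (0) had 25 with the compared groups alone and 1 without C26 female 25 days replicate 6, and 0 to 1 with 1 library left out. The other comparisons had 0 in each fit run. The cause of these shifts was not tested. Shares of all genes are printed above for only some of these fits. A shift in the count is therefore not read as a result about the members. Calls held in every alternative fit for 35 of 39 members in APC+/Min females, 12 of 20 in APC+/Min males and 2 of 6 in C26 males at 25 days.

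With the replicate number as a block, the counts were 38 in APC+/Min females, 17 in APC+/Min males, 6 in C26 males at 25 days and 0 in all other comparisons. Shares of all genes called with the block are not given, so these counts are not read as a result about the members. Same-numbered replicates correlated above 0.1 in 31.2% of 199 pairs (C26) and 23.7% of 38 pairs (APC). Their mean correlation was -0.02 in both experiments, against 0.007 (C26) and 0.004 (APC) for other pairs. Whether same-numbered libraries share more than a number was not tested. Depth limits the members of low level most: Cox4i2, the lowest, averaged 2.65 CPM at totals of 18.2 to 30.7 M counts.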
